A study of Mus musculus with 38 samples.

Results

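A set of 9 genes of the p53 pathway and of the mitochondrial route to apoptosis was followed through the retinoic acid (RA) driven differentiation of mouse embryonic stem cells (mESCs). They are Trp53, Mdm2, Ccng1, Bax, Bbc3, Pmaip1, Bcl2, Bcl2l11 and Mcl1. They were taken by symbol, and no measured value enters the rule, although the set was proposed with earlier results of these data known. All 9 were present among the 23479 genes read from the bulk table and in both single-cell data sets.

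The series holds 38 samples of 1 cell line, E14. Undifferentiated cells grew in a modified 2i medium with LIF (mESC, 0 h, 2 bulk libraries), and differentiating cells were moved to N2B27 basal medium with 0.25 µM RA, with 1 bulk library at each of 6, 12, 24, 36, 48, 60, 72, 84 and 96 h; beyond 48 h the medium was renewed at 48 h. At 96 h, ectoderm-like cells (CD24+/PDGFRA-) and extraembryonic endoderm (XEN)-like cells (PDGFRA+/CD24-) were sorted, with 2 libraries each that are labelled as biological replicates. Further sorts had 1 library each: at 48 h the quartiles Q1 to Q4 of CD24 among PDGFRA- cells, and at 72 h the terciles T1 to T3 of CD24 among PDGFRA- cells and the PDGFRA+/CD24- cells. Sorted cells were also kept in N2B27 with 20 ng/ml EGF and 10 ng/ml FGF2 after first plating on poly-D-lysine and laminin. The ectoderm-like culture was sampled after 5 passages (1 library), and the XEN-like culture, kept as floating aggregates, after 3 weeks (1 library). Single cells were measured by SCRB-seq at 0, 6, 12, 24, 36, 48, 60, 72 and 96 h (1 plate of 384 wells each) and by SMART-seq2 at 0, 12, 24 and 48 h (339 cells).

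p53, the product of Trp53, is a transcription factor that halts the cell cycle, activates repair or triggers death after DNA damage and other stress. In unstressed cells the ubiquitin ligase Mdm2, itself a p53 target, keeps the protein low, so that p53 activity is set mostly at the protein level and not by the amount of Trp53 mRNA. Cell death through mitochondria is decided among proteins of the BCL2 family. The BH3-only proteins Puma (Bbc3), Noxa (Pmaip1) and Bim (Bcl2l11) neutralise the guardians Bcl2 and Mcl1 or activate the effector Bax, which then opens the outer mitochondrial membrane. Ccng1, Bax, Bbc3 and Pmaip1 are classical p53 targets, whereas Bim is mostly controlled by other factors. mESCs are known for abundant p53.

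The promoters of 4 members are shown because each carries an exact match to the p53 half-site consensus, the decamer of which p53 binds a pair. The window is the RefSeq one, from 250 bases before to 50 bases after the gene's start (GRCm38.p6, 300 bases); 8 of the 9 members had an entry. Capitals mark the exact half-site in each and, in Bax, also the inexact partner that precedes it in a full site:
Trp53 (chr11:69580109-69580408, plus strand): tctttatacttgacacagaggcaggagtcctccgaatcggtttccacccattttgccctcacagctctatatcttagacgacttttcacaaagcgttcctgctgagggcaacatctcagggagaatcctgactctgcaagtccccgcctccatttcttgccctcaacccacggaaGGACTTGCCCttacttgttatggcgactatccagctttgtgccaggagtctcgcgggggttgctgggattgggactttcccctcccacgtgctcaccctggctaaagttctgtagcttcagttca
Mdm2 (chr10:117710709-117711008, minus strand): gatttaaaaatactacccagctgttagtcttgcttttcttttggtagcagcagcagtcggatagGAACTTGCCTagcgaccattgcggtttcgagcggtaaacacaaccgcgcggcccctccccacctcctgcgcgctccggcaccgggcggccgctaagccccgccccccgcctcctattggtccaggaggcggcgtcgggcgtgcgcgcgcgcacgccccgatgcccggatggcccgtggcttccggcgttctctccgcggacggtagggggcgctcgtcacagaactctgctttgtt
Ccng1 (chr11:40755237-40755536, minus strand): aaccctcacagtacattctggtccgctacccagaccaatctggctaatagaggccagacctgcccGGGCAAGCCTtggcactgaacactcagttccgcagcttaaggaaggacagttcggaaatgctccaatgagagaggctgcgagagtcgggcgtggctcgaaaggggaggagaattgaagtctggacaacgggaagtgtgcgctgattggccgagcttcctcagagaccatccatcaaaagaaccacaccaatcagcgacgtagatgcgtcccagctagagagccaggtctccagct
Bax (chr7:45466849-45467148, minus strand): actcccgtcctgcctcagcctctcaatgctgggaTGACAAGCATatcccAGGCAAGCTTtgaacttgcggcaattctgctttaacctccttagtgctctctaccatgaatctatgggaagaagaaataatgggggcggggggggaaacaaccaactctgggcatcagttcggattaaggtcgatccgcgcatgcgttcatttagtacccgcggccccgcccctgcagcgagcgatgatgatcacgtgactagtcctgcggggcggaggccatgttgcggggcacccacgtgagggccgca

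The half-site consensus reads the same on both strands, and it matched exactly in 8.36% of the 32851 promoter entries. Relative to the start it began at position -75 in Trp53, -186 in Mdm2, -185 in Ccng1 and -201 in Bax. A full site, meaning a pair of half-sites with at most 2 mismatches in all and a spacer of up to 13 bases, was present in 2.12% of entries. Among the members with an entry it was present in Bax alone, where 2 such pairs matched, and the one in capitals began at -216 with a spacer of 5 bases and 2 mismatches. The windows of Bcl2, Bcl2l11, Mcl1 and Bbc3 held no exact half-site. A match is a description of the letters and not of binding, and p53 sites outside the window were not searched.

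In GRCm38 the Trp53 gene spans chr11:69580359-69591873 and Ccng1 chr11:40748552-40755311, on the same chromosome. Mdm2 lies at chr10:117688875-117710758 and Mcl1 at chr3:95658788-95663176. Bax lies at chr7:45461697-45466898 and Bbc3 at chr7:16308393-16318205. Bcl2 lies at chr1:106538178-106714274 and Bcl2l11 at chr2:128126038-128162547. All are protein-coding, and the values below are per gene and not per transcript.

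The bulk libraries held 1063830 to 2459483 UMIs (unique molecular identifiers, each counted as 1 RNA molecule), with a median of 1665383. Levels are given as UMIs per 1000000 UMIs of the library (CPM), with no correction for transcript length, so they are compared between libraries and not between genes. The labels of the sorts matched their markers. The summed level of 11 XEN marker genes was 12049 and 6665 CPM in the sorted XEN-like libraries and 485 and 1779 CPM in the sorted ectoderm-like ones. The summed level of 11 ectoderm markers was 3270 and 2803 CPM in sorted ectoderm-like cells and 611 and 323 CPM in sorted XEN-like cells. In a library of many cells, fewer cells of a type and less RNA per cell cannot be told apart.

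Over the bulk time course Trp53 fell between 24 and 48 h, and Ccng1 and the death-promoting gene Bcl2l11 were higher from 48 h on. Trp53 was at 361 and 247 CPM in the mESC libraries, then at 335, 389, 341 and 239.6 CPM at 6, 12, 24 and 36 h, and at 146, 117, 125, 148 and 127 CPM at 48, 60, 72, 84 and 96 h. Every library up to 36 h lay above every library from 48 h on. The step from 36 to 48 h was a ratio of 0.609 (95% counting interval 0.527 to 0.704), and a smaller step preceded it, with a ratio of 0.703 (0.620 to 0.797) from 24 to 36 h.

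Ccng1 (cyclin G1, a p53 target that recruits a phosphatase to Mdm2) moved the other way. It was at 76.1 and 66.6 CPM in mESCs and between 52.4 and 68.9 CPM from 6 to 36 h. From 48 to 96 h it was at 129, 148, 170.0, 189 and 158 CPM. The early and late libraries did not overlap, and the step from 36 to 48 h was a ratio of 2.22 (1.76 to 2.82).

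Bim mRNA (Bcl2l11) showed the same step at a low level in bulk, which SCRB-seq did not show (ratio of 48 to 36 h 1.06, 0.654 to 1.70). It was at 3.94 and 2.61 CPM in mESCs and at 4.89, 3.96, 4.98 and 3.63 CPM up to 36 h, and at 18.7, 15.0, 20.2, 17.1 and 16.4 CPM from 48 h on. The ranges lay far apart, and the ratio of 48 to 36 h was 5.15 (2.19 to 14.8). The other BH3-only genes were sparse. Noxa mRNA (Pmaip1) was between 0 and 0.996 CPM in the 6 libraries up to 36 h and between 1.63 and 7.17 CPM in the 5 libraries from 48 h on. Puma mRNA (Bbc3) was between 0.875 and 1.96 CPM before and between 2.44 and 7.21 CPM after, without overlap, although each Bbc3 level rests on 12 or fewer UMIs.

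The remaining members had overlapping early and late ranges. Mdm2 was between 29.2 and 35 CPM up to 36 h and between 33.6 and 45.2 CPM later, with a ratio of 1.09 (0.759 to 1.56) from 36 to 48 h. Bax was at 280.0 and 228 CPM in mESCs, reached 351 CPM at 36 h, and was between 214 and 259 CPM later. Mcl1, the short-lived guardian that protects pluripotent cells, was at 38.5 and 37 CPM in mESCs, at 86.7 CPM at 24 h and 72.0 CPM at 36 h, and back between 30 and 46.8 CPM from 48 h on. Bcl2 was at 0 in 7 of the 11 time course libraries, at 0.489 CPM (1 UMI) at 6 h, and at 1.09, 3.63 and 4.61 CPM at 72, 84 and 96 h.

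In all, 5 members had ranges that did not overlap between 0 to 36 h (6 libraries) and 48 to 96 h (5 libraries), 4 of them higher later and 1 lower. Among 12197 genes the same held for 20.6%, with 16.5% higher later and 4.13% lower later. The split at 36 h was chosen after the values were seen. At each time point except 0 h there was 1 library, so the differences between single times have no replicate check. At 96 h against the mean of the mESC libraries 3 members were past 2-fold, with Trp53 2.39-fold lower, Ccng1 2.21-fold higher and Bcl2l11 5.01-fold higher, when 34.2% of 9346 genes were past 2-fold in either direction, 24.4% higher and 9.87% lower. The median log2 ratio of all genes was 0.33 here with library totals and -0.04 with TMM factors, which correct for a few abundant genes that take up counts, under which Ccng1 was at 0.77 and no longer past 2-fold. Against the second mESC library alone Trp53 was at a log2 ratio of -0.96, just short of 2-fold. Cell type markers moved with these differences. The pluripotency marker sum was 13436 and 18353 CPM in mESCs, and at 36, 48 and 96 h it was 7028, 3981 and 2777 CPM. Most of the mESC sum was Dppa5a, at 10994 and 15849 CPM. The summed ectoderm markers went from 1515 to 2437 CPM between 36 and 48 h, and the summed XEN markers from 517 to 12297 CPM between 48 and 96 h. The part of these in the member values was not tested. Of 22 other p53 targets compared 7 were higher and 3 lower by over 2-fold, with a median of 0.32 beside 0.33 over all genes.

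**Figure D1:**
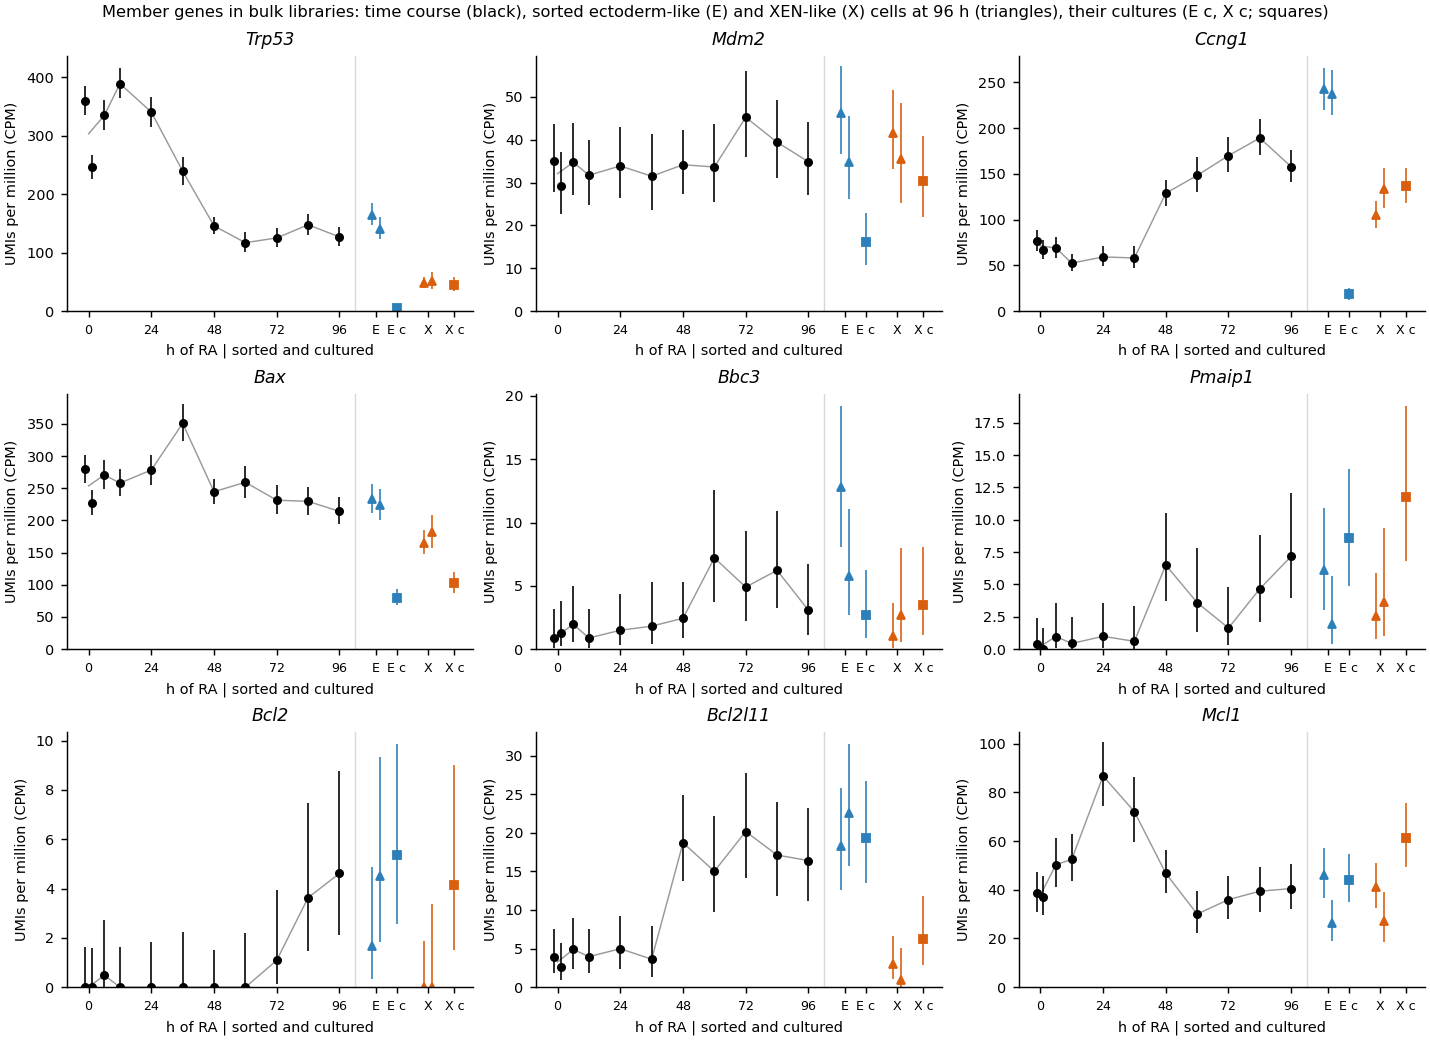
Each panel plots 1 member in CPM (vertical axis, from 0) against hours in RA (black line and points), followed by sorted ectoderm-like and XEN-like cells at 96 h (triangles, labelled E and X) and their cultures (squares, labelled E c and X c); bars are 95% counting intervals of each library and the line starts at the mean of the mESC libraries. Trp53 drops between 24 and 48 h and is at 5.89 in the ectoderm-like culture, while Ccng1 and Bcl2l11 rise between 36 and 48 h.

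The 6 libraries with replicates, mESC, sorted ectoderm-like and sorted XEN-like, allow a test of each lineage against the start and of the lineages against each other. The question is whether the cells that leave pluripotency towards each fate differ in these genes. The 3 contrasts share libraries, so they are not independent, and each group has only 2 libraries. An edgeR quasi-likelihood fit over 8947 genes was used with Benjamini-Hochberg adjustment, and a gene was called at an adjusted p under 0.05. Of the members, 7 were tested, while Pmaip1 and Bcl2 did not pass the low-count filter.

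In ectoderm-like cells 4 members differed from mESCs, 3 higher and 1 lower, where 19.1% of genes were called in either direction, 9.85% higher and 9.28% lower. Trp53 was at 165 and 141 CPM in ectoderm-like cells against 361 and 247 CPM in mESCs, a log2 fold change of -1.30 ± 0.27 (SE, adjusted p = 0.0056). Ccng1 was at 242 and 238 CPM against 76.1 and 66.6 CPM, a log2 fold change of 1.44 ± 0.28 (adjusted p = 0.0037). For neither gene did the groups overlap, although without the second ectoderm-like library the adjusted p of Trp53 was 0.062.

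Among the BH3-only genes, Bcl2l11 was at 18.3 and 22.6 CPM in ectoderm-like cells, a log2 fold change of 2.32 ± 0.50 (adjusted p = 0.0069). Bbc3 was at 12.8 and 5.81 CPM against 0.875 and 1.31 CPM, a log2 fold change of 2.72 ± 0.72 (adjusted p = 0.022). The Bcl2l11 call was lost with DESeq2 (adjusted p = 0.070) and without the second ectoderm-like library (adjusted p = 0.083). The Bbc3 call was lost with DESeq2 (adjusted p = 0.19) and when any 1 of the 4 libraries compared was left out, while its log2 fold change stayed between 2.12 and 3.11. Pmaip1 was at 6.11 and 1.94 CPM against 0.437 and 0 CPM, and Bcl2 at 1.67 and 4.52 CPM against 0 in both mESC libraries. With the filter removed edgeR gave an adjusted p of 0.023 for Pmaip1 and 0.0495 for Bcl2. These rest on 11 and 3 against 1 and 0 UMIs for Pmaip1, and 3 and 7 against 0 for Bcl2. Without the filter 2547 genes were called in this contrast, against 1711 with it.

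Mdm2, Bax and Mcl1 did not pass the threshold in ectoderm-like cells. The log2 fold change of Mdm2 was 0.02 ± 0.30, at 46.1 and 34.9 CPM. Bax was at 233 and 224 CPM against 280.0 and 228 CPM in mESCs, so the groups overlapped, with a log2 fold change of -0.46 ± 0.25 (adjusted p = 0.23). Mcl1 was at 46.1 and 26.5 CPM, on both sides of the mESC values.

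In XEN-like cells Trp53 was the 1 member called, where 22.8% of genes were called and 10.5% were lower. It was at 48.2 and 51 CPM, a 7.02-fold decrease on the fitted scale (log2 fold change -2.81 ± 0.29, adjusted p = 9.8e-05). That call held under every alternative run. Ccng1 was at 105 and 133 CPM, above both mESC libraries, with a log2 fold change of 0.54 ± 0.28 that did not pass (adjusted p = 0.19). Bax was at 166 and 181 CPM, below both mESC libraries (log2 fold change -0.75 ± 0.25, adjusted p = 0.053). Bcl2l11 was at 3.05 and 0.911 CPM, overlapping with mESCs, and Bbc3 at 1.02 and 2.73 CPM.

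Between the lineages 2 members were called, both lower in XEN-like cells, where 12.7% of genes were called and 5.74% were lower. Bcl2l11 differed most among them, at 3.05 and 0.911 CPM in XEN-like against 18.3 and 22.6 CPM in ectoderm-like cells (log2 fold change -3.09 ± 0.57, adjusted p = 0.0055). Trp53 was 2.86-fold lower in XEN-like cells (log2 fold change -1.52 ± 0.28, adjusted p = 0.0058). The Trp53 call was lost when replicate 1 of the ectoderm-like sort was left out (adjusted p = 0.061), and likewise for replicate 1 of the XEN-like sort (adjusted p = 0.080). Ccng1 (-0.90 ± 0.27, adjusted p = 0.053) and Bbc3 (-2.34 ± 0.74, adjusted p = 0.062) were lower in both XEN-like libraries than in both ectoderm-like ones, as groups without overlap were for 57.7% of genes, but did not pass. Mdm2, Bax and Mcl1 differed by 0.29 or less on the log2 scale and did not pass. The second ectoderm-like library held more XEN marker RNA than the first (1779 against 485 CPM), and the part of this in the member values was not tested.

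**Figure D2:**
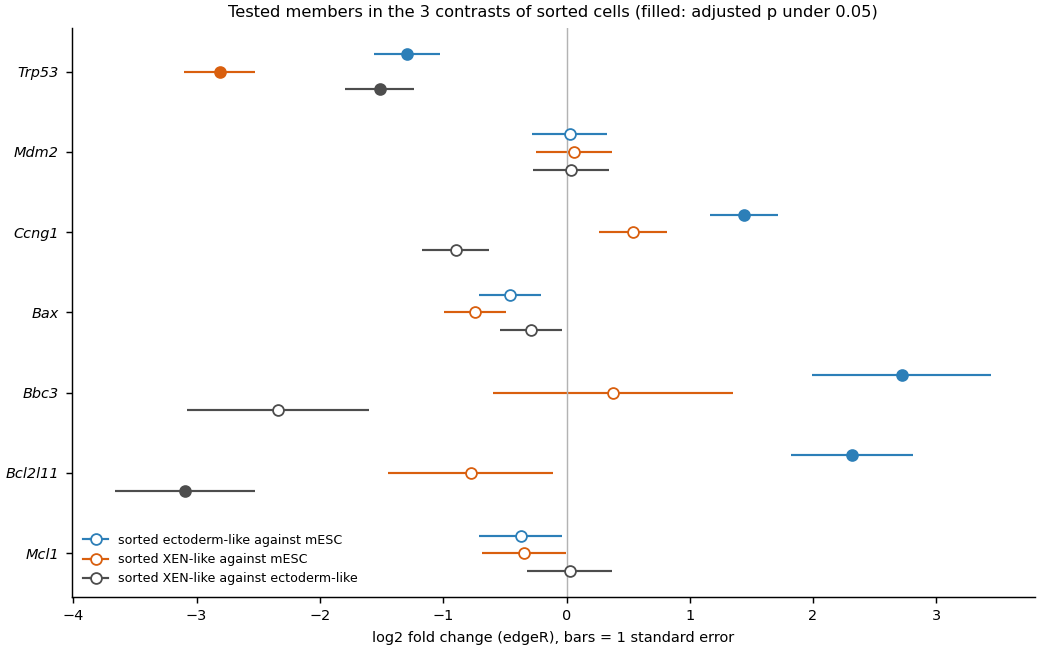
The horizontal axis gives the log2 fold change from edgeR for the 7 members tested, with bars of 1 standard error, in the 3 contrasts given in the legend (2 libraries per group); filled points have an adjusted p under 0.05. Trp53 lies to the left in all 3 contrasts, and Bcl2l11 lies at 2.32 in ectoderm-like cells against mESCs and at -3.09 in XEN-like against ectoderm-like cells.

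Other p53 targets in a list of 25 did not move in 1 direction. In ectoderm-like cells against mESCs 4 of 21 tested were higher, Plk2, Rrm2b, Eda2r and Gadd45a, and 2 were lower. Their median log2 fold change was 0.44, beside 0.05 over all genes. Eda2r, a receptor of the TNF receptor family, rose by 1.19 ± 0.36 on the log2 scale (adjusted p = 0.038). Ephx1, a detoxifying epoxide hydrolase, fell by 4.60 (adjusted p = 0.0029). The gene listed as 9630033F20Rik, known as Tigar, which limits glycolysis, fell by 3.89 (adjusted p = 6.7e-05).

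In XEN-like cells none of the 21 was higher than in mESCs and 6 were lower, with a median of -0.74 beside -0.06 over all genes. Against ectoderm-like cells none was higher by edgeR and 6 were lower again, with a median of -0.79 beside -0.06. The lower ones against ectoderm-like cells were led by Ak1, an adenylate kinase (log2 fold change -3.53, adjusted p = 0.0012), Trp53inp1, a p53-induced stress protein (-2.54, adjusted p = 0.0029), and Ckap2, a spindle protein (-1.85, adjusted p = 0.0082). Zmat3, Plk2 and Psrc1 were the others.

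Of 11 tested regulators and relatives of p53, 1 was higher (Trp53bp1, a DNA break protein) and 2 were lower (Chek2, a damage kinase, and Usp7, which removes ubiquitin from Mdm2 and p53) in ectoderm-like cells, and Usp7 alone was lower in XEN-like cells against mESCs. None of the 11 was called between the lineages by edgeR. Of 4 tested BCL2 family genes outside the members, the guardian Bcl2l1 was higher in both lineages than in mESCs, by a log2 fold change of 1.16 for the ectoderm-like (adjusted p = 0.027) and 1.34 for the XEN-like cells (adjusted p = 0.012). The BH3-only gene Bid was lower in both, by -1.79 and -2.82 (adjusted p = 0.0026 and 0.00024), and Bad was higher in XEN-like cells (1.33, adjusted p = 0.028). In the caspase list of 12 tested genes Casp2 and Casp6 were higher in ectoderm-like cells and Casp6 in XEN-like cells.

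The sorts by surface marker at 48 and 72 h show how the members vary inside the cells that lack PDGFRA. They had 1 library each, so ratios come with counting intervals and no test of the conditions. At 48 h no member was past 2-fold between the highest and the lowest CD24 quartile, where 10.1% of 6954 genes were. Trp53 nevertheless had the order of the quartiles, at 199, 184, 165 and 126 CPM from Q1 to Q4, with a ratio of 0.636 (0.529 to 0.763) between the ends. Ccng1 had the opposite order, at 89.6, 97.8, 116 and 136 CPM, with a ratio of 1.52 (1.22 to 1.90). Mcl1 was at 58.2, 58.6, 45.1 and 32.2 CPM, a ratio of 0.553 (0.384 to 0.791). The pluripotency marker sum went from 6664 CPM in Q1 to 4292 CPM in Q4 and the ectoderm marker sum from 885 to 1560 CPM, so the quartiles also differed in these markers, whose part in the member values was not tested. Of 18 other p53 targets compared 4 were past 2-fold higher in Q4 (Zmat3, Btg2, Plk2 and Xpc) and none was lower, with a median of 0.55 beside 0.04 over all genes.

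At 72 h no member with at least 20 counts was past 2-fold between the highest and the lowest CD24 tercile either (12.4% of genes were). Trp53 was at 113, 138 and 164 CPM from T1 to T3, the opposite order to that of the 48 h quartiles, with a ratio of 1.45 (1.17 to 1.80). Ccng1 was at 168, 230.2 and 230.3 CPM, a ratio of 1.37 (1.15 to 1.64), and Mcl1 at 47.4, 31.8 and 24.6 CPM, a ratio of 0.518 (0.327 to 0.808). Mcl1 was thus lower where CD24 was higher at both times.

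The PDGFRA+/CD24- cells at 72 h differed from T3 in the direction of the 96 h lineages. Trp53 was at 50.7 against 164 CPM, a ratio of 0.309 (0.232 to 0.407), close to its level in the sorted XEN-like cells a day later. Ccng1 was at 97.7 against 230.3 CPM, a ratio of 0.425 (0.343 to 0.522). Bcl2l11 was at 5.14 against 14.6 CPM, a ratio of 0.353 (0.125 to 0.876). These were the 3 members past 2-fold, all lower, beside 26.1% of genes past 2-fold in either direction and 14.5% lower. In the list of p53 targets 9 of 16 compared were lower and none was higher, with a median of -1.16 beside -0.15 for all genes. The pluripotency marker sum was 7169 CPM in the PDGFRA+/CD24- cells, and 4643, 1983 and 1314 CPM in T1, T2 and T3. Of 7 of its genes compared with T3, 5 were past 2-fold higher, among them Dppa5a, and Sox2 was lower. In sorted XEN-like cells at 96 h Dppa5a alone was at 5947 and 4351 CPM, of sums of 6267 and 4524 CPM. All 12 markers were called lower there than in mESCs by edgeR. The part of these markers in the values at 72 h was not tested.

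Each culture is set beside the sorted cells of its lineage; no label ties it to those 2 libraries. In the ectoderm-like culture Trp53 was at 5.89 CPM (11 UMIs), against 165 and 141 CPM in freshly sorted ectoderm-like cells, which is 26-fold lower. Of 9586 genes compared, 49 had a lower ratio. Ccng1 was at 18.2 CPM (34 UMIs) against 242 and 238 CPM, 13.2-fold lower, with 125 genes lower still. Bax was at 80.3 CPM against 233 and 224 CPM (2.85-fold lower) and Mdm2 at 16.1 CPM against 46.1 and 34.9 CPM (2.52-fold lower). Trp53, Mdm2, Ccng1 and Bax each had their lowest level of all 25 bulk libraries in this culture.

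Bbc3 was at 2.68 CPM in the ectoderm-like culture, 3.47-fold lower than the mean of the sorted libraries, and Pmaip1 at 8.57 CPM, 2.13-fold higher. Bcl2 (5.35 CPM), Bcl2l11 (19.3 CPM) and Mcl1 (43.9 CPM) were not past 2-fold. In all 6 members were past 2-fold, 5 of them lower, where 32.2% of genes were past 2-fold, 17.5% higher and 14.7% lower. Relative to Gapdh, a reference gene that shifts the median of all genes to 0.87, Mdm2 (-0.47), Bax (-0.64) and Bbc3 (-0.94) were no longer past 2-fold, while Trp53 (-3.83) and Ccng1 (-2.85) were. Pmaip1 (1.95), Bcl2 (1.67) and Mcl1 (1.14) were then past 2-fold higher, so 2 members were lower and 3 higher on that scale.

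The list of p53 targets had fallen with them, with 13 of 21 past 2-fold lower and 2 higher, Fas and Plk2, and with a median log2 ratio of -1.67 beside 0.003 over all genes. Cdkn1a, the cell cycle inhibitor p21, was at 3.75 CPM against 86.1 and 131 CPM. Eda2r was at 1.61 CPM against 54.5 and 58.8 CPM, Trp53inp1 at 4.82 CPM against 115 and 86.6 CPM, and Zmat3, an RNA-binding protein, at 3.75 CPM against 45.6 and 26.5 CPM. Cdkn2a, whose locus encodes the Mdm2 inhibitor Arf and the cell cycle inhibitor p16, was higher, at 53 CPM against 11.7 and 11 CPM. Of 11 p53 regulators 5 others were lower (Atm, Atr, Chek1, Chek2 and Usp7). Cdkn1a, Eda2r, Trp53inp1, Zmat3 and Cdkn2a were picked from their lists after the values were seen.

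The ectoderm-like culture was 1 library after 5 passages, and its markers differed from those of the sorted cells. The ectoderm marker sum was 1653 CPM, with Sox1 at 0, against 3270 and 2803 CPM in the sorted cells, and the XEN marker sum was 2235 CPM. Of 11 XEN markers compared with the sorted cells only Sparc was past 2-fold higher, and 5 were lower (Lama1, Dab2, Gata4, Gata6 and Sox17). Their median log2 ratio was -0.81, so the XEN sum does not stand for most of its genes. The part of these shifts in the member values was not tested, and the effects of culture time and medium cannot be told apart.

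The XEN-like culture had Trp53, Ccng1 and Mdm2 within 2-fold of the sorted cells. Trp53 was at 45.5 CPM against 48.2 and 51 CPM in the sorted XEN-like cells, Ccng1 at 137 against 105 and 133 CPM, and Mdm2 at 30.4 against 41.6 and 35.5 CPM. Pmaip1 was the 1 member past 2-fold with at least 20 counts, at 11.7 against 2.54 and 3.65 CPM (3.79-fold higher), where 42.2% of genes were past 2-fold and 24.9% were higher. Bcl2 had 6 UMIs against 0 in both sorted libraries, which is at least 4.23-fold higher against a floor of 3 counts over the group; against each sorted library alone the bound was a log2 ratio of 1.44 for replicate 1 and 0.60 for replicate 2. Bax was at 103 CPM, below both sorted libraries, with a log2 ratio of -0.76. Cdkn1a was at 246 CPM against 43.2 and 73.8 CPM, opposite in direction to its fall in the ectoderm-like culture, and of 21 p53 targets 9 were higher and 4 lower (median 0.58 beside 0.06). Marker levels were also different. The pluripotency marker sum was 718 CPM against 6267 and 4524 CPM in the sorted libraries, with 4 of 7 genes compared past 2-fold lower and 2 higher. The ectoderm marker sum was 1552 against 611 and 323 CPM, with Sox1 at 0. Of 7 ectoderm markers compared 3 were past 2-fold higher (Fabp5, Cd24a and Sox11) and 2 lower (Prtg and Mdk), with a median log2 ratio of -0.38. The XEN marker sum was 10097 CPM, between the 12049 and 6665 CPM of the sorted libraries. The part of these differences in the member values was not tested.

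**Figure D3:**
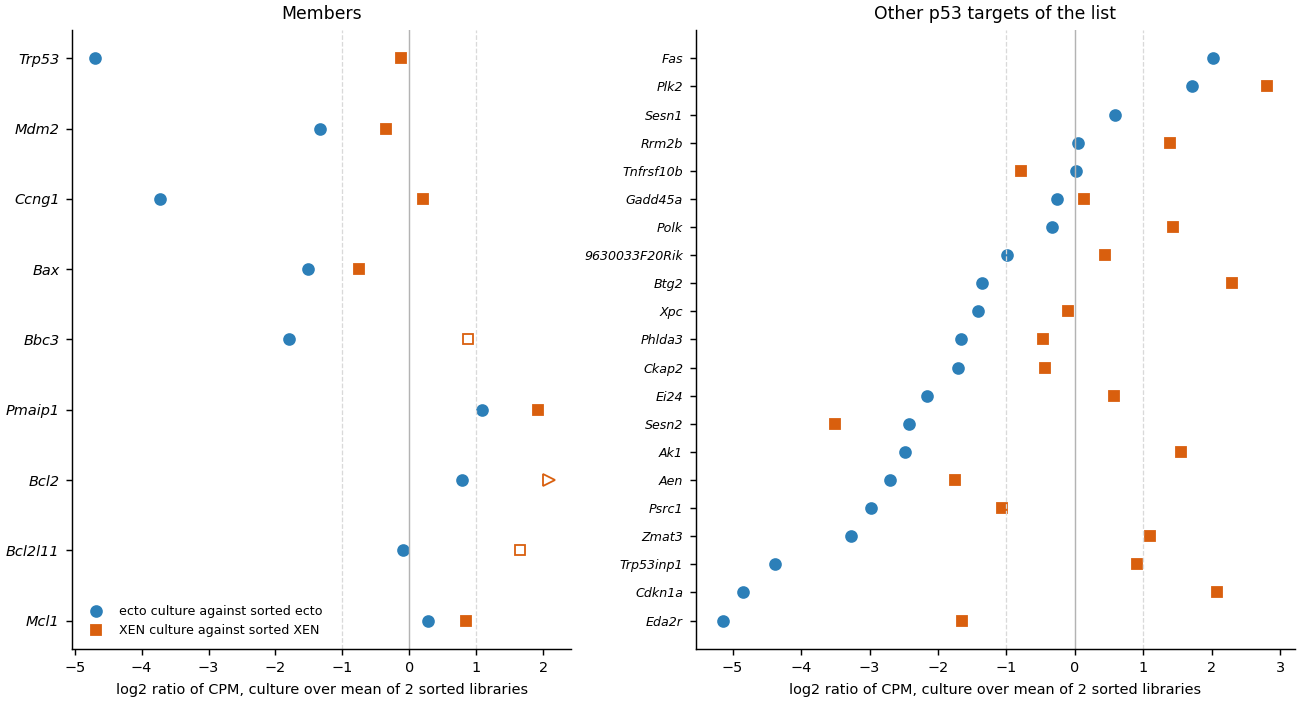
The horizontal axes give the log2 ratio of CPM in each culture (1 library) to the mean of the 2 sorted libraries of its lineage, for the members (left) and for the other p53 targets (right); open points rest on under 20 counts (shown for members only), the triangle is a lower bound and the dashed lines mark 2-fold. In the ectoderm-like culture Trp53 (-4.70) and Ccng1 (-3.72) lie far to the left, while in the XEN-like culture they lie at -0.12 and 0.20.

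In the SCRB-seq data the number of wells with enough RNA fell late in differentiation, and the question was whether the members moved with it. Cells had been sorted into wells on a Hoechst stain for DNA content and viability. Of 384 wells per plate, 282, 335, 285, 290, 334, 277, 273, 235 and 137 held more than 2000 UMIs at 0, 6, 12, 24, 36, 48, 60, 72 and 96 h. The share was 73.4% at 0 h, 61.2% at 72 h (exact Clopper-Pearson 95% interval 56.1 to 66.1) and 35.7% at 96 h (30.9 to 40.7). At 96 h 225 wells held 200 to 2000 UMIs and the median of all wells was 1336 UMIs, against 3092 at 0 h. Each time point is 1 plate of 1 culture, so intervals cover counting error only. Those on member levels pool UMIs over wells and leave out the spread between wells, so they can be too narrow. At 6 h, for example, Trp53 had 615 UMIs in 335 wells, with up to 39 in 1 well. All 384 well names recur on each plate because they are positions.

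Trp53 was at its lowest where the fewest wells passed. Pooled over passing wells it was at 0.955 UMIs per 10000 UMIs at 0 h, then 2.37, 2.33, 1.80 and 1.74 at 6, 12, 24 and 36 h, 0.925, 0.721 and 0.932 at 48, 60 and 72 h, and 0.344 at 96 h (25 UMIs in 137 wells). It was the 1 member with at least 20 counts that was past 2-fold between 96 and 0 h, with a ratio of 0.360 (0.227 to 0.549), where 43.1% of 9248 genes were past 2-fold and 19.5% were lower. Against 72 h the ratio was 0.369 (0.230 to 0.571), where 29.9% were past 2-fold and 14.9% were lower. Of 22 other p53 targets compared between 96 and 0 h, 3 were higher and 7 lower by over 2-fold, with a median of -0.41 beside 0.15 over all genes.

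Ccng1 was at 2.44 UMIs per 10000 at 0 h, between 0.941 and 1.63 from 6 to 36 h, and then at 2.04, 2.25, 3.57 and 4.84 at 48, 60, 72 and 96 h. The 96 h plate was 1.99 times the 0 h plate (1.73 to 2.29), just under 2-fold, and 1.36 times the 72 h plate (1.18 to 1.56). Mdm2 was highest at 96 h, at 1.29 UMIs per 10000, with a ratio to 0 h of 1.32 (1.02 to 1.71). Mcl1 peaked at 36 h, at 4.41 UMIs per 10000, and was at 1.95 at 96 h, a ratio to 0 h of 1.29 (1.05 to 1.59). Bax was between 0.366 and 0.765 UMIs per 10000 at all times, and its interval at 96 h overlapped with that at 0 h (ratio 1.17, 0.793 to 1.70).

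The remaining members were too sparse for most comparisons. Bcl2l11 was highest at 72 h (80 UMIs, 0.611 per 10000) and at 0.124 at 96 h (9 UMIs), a ratio of 0.203 (0.0894 to 0.404). Bbc3 was also highest at 72 h, with 21 UMIs, and at 6 UMIs at 96 h. Bcl2 had 11 UMIs at 96 h and at most 8 on any other plate. Pmaip1 had no UMI at 12, 72 and 96 h, and at 96 h 3 counts would have been 0.0413 UMIs per 10000.

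Across the 9 plates the level of Ccng1 was inversely related to the share of wells that passed. Pearson's r was -0.930 (two-sided exact permutation p = 0.00071, adjusted over the 9 members p = 0.0063) and Spearman's rho -0.933 (exact permutation, adjusted p = 0.0067). No other member passed by Pearson's r: it was 0.733 for Trp53 (exact permutation, adjusted p = 0.053) and -0.750 for Mdm2 (exact permutation, adjusted p = 0.056). By Spearman's rho Trp53 (0.883, exact permutation, adjusted p = 0.014), Bax (0.783, adjusted p = 0.048) and Mcl1 (0.767, adjusted p = 0.048) also passed, with the opposite sign to Ccng1. At a minimum of 1000 or 4000 UMIs per well no member passed by Spearman's rho, with adjusted p-values (exact permutation) of 0.19 and 0.11 for Trp53, 0.22 and 0.30 for Bax, 0.19 and 0.11 for Mcl1 and 0.19 and 0.11 for Ccng1.

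The relation of Ccng1 leaned on the ends of the range. Without the plates of 6 and 96 h, which were farthest from the median share, r was -0.754 (exact permutation p = 0.061, adjusted p = 0.16), and those of Trp53 and Mdm2 were 0.511 and -0.218. Mcl1 was then the 1 member called (r 0.814, exact permutation, adjusted p = 0.048). With a minimum of 1000 UMIs r of Ccng1 was -0.871 (exact permutation, adjusted p = 0.047) and Ccng1 alone passed. With a minimum of 4000 UMIs r of Ccng1 was -0.782 and no member passed. Share and level come from the same plates and both changed with time, so the relation cannot be told apart from the passing of time.

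A more direct comparison is between shallow wells and passing wells of the same plate. At 96 h, wells with 200 to 2000 UMIs had the members at levels that did not differ beyond counting error from those of passing wells. The ratio of shallow to passing wells was 1.01 (0.370 to 2.41) for Trp53, 0.916 (0.717 to 1.16) for Ccng1, 0.886 (0.536 to 1.41) for Mdm2, 1.03 (0.496 to 2.00) for Bax and 0.740 (0.478 to 1.11) for Mcl1. None of these was past 2-fold, where 14.2% of 6400 genes were, and the widths of the intervals leave room for changes of about that size in Trp53, Bax and Mcl1. Over all 9 plates, of 51 comparisons of a member with at least 20 counts, 3 intervals lay above 1 and 3 below. The same share over all genes was not computed, so the count is no result about the members. Of 15 other p53 targets compared at 96 h none was past 2-fold higher in shallow wells and 1, Plk2, was lower. These comparisons were chosen after seeing the data.

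**Figure D4:**
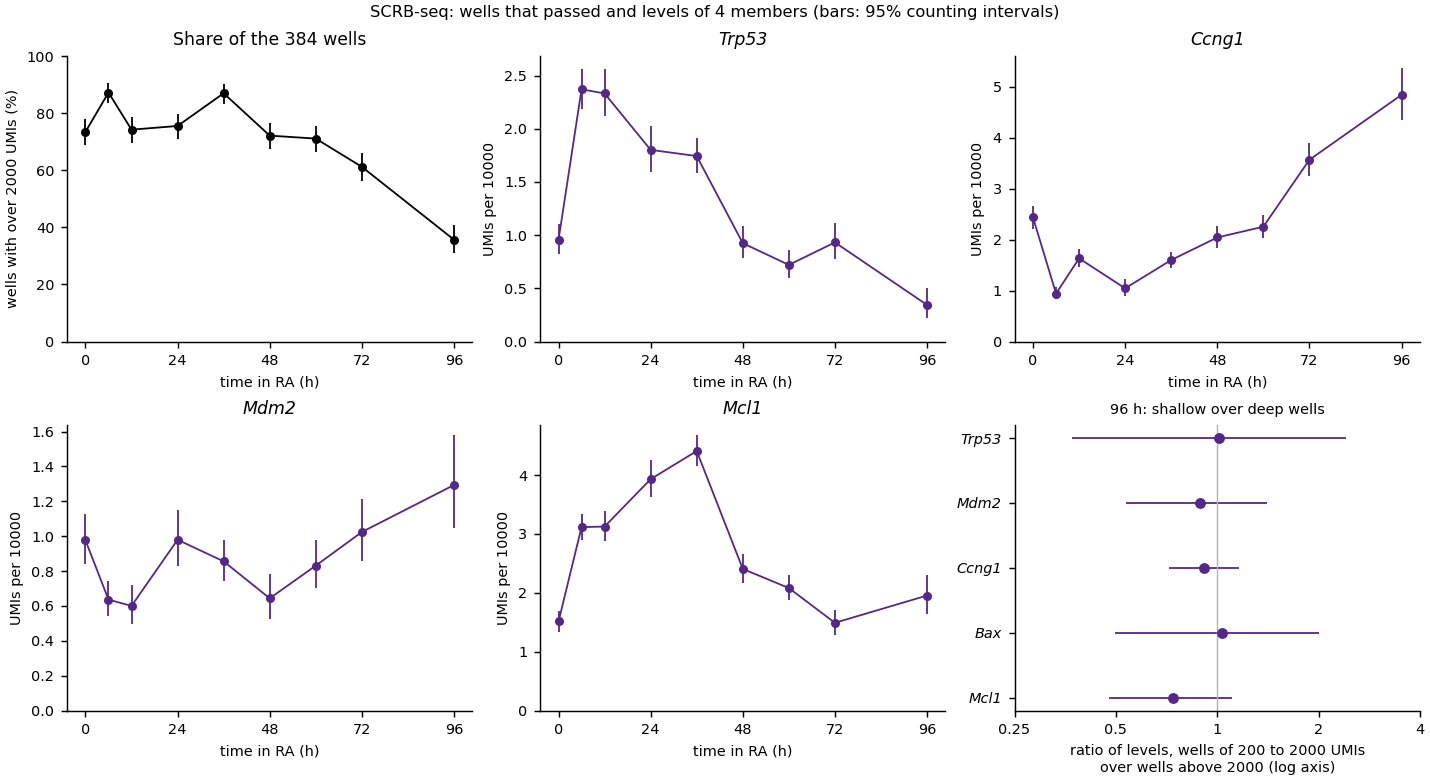
The first panel gives the percentage of 384 SCRB-seq wells with more than 2000 UMIs at each time in RA, the next panels the level of Trp53, Ccng1, Mdm2 and Mcl1 in UMIs per 10000 UMIs of those wells, and the last the ratio (log axis) of shallow to passing wells at 96 h; bars are 95% counting intervals. The share of wells falls to 35.7% at 96 h, where Trp53 is lowest and Ccng1 highest, and the intervals of the ratios in the last panel include 1.

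The passing wells at 96 h fell into 2 clusters by k-means on 829 variable genes, none of them a member. In cluster 2 (74 wells) all 11 ectoderm markers were higher than in cluster 1, and in cluster 1 (63 wells) all 11 XEN markers were higher. By these markers cluster 1 lay on the XEN-like side. The markers were not left out of the clustering and the XEN markers set the numbering, so this split is no independent support. The XEN markers were 1.38 (Pdgfra) to 3.47 (Gata4) times higher in cluster 1. Between the sorted lineages their median log2 fold change was 2.99 by edgeR. The genes leading cluster 1 by fold were not on the XEN marker list and included Dppa5a. That pluripotency gene was also higher in sorted XEN-like than in sorted ectoderm-like cells (edgeR log2 fold change 3.86, adjusted p = 0.00026). No member with counts in both clusters differed beyond its counting interval. Trp53 had 9 UMIs in cluster 1 and 16 in cluster 2 (ratio 0.665, 0.259 to 1.60), Ccng1 144 and 208 (ratio 0.819, 0.657 to 1.02) and Bcl2l11 1 and 8 (ratio 0.148, 0.00333 to 1.10). The interval for Trp53 is wide enough to hold a difference as large as the 2.86-fold one between the sorted lineages. That for Ccng1 leaves out its 1.87-fold difference between the sorted lineages, which did not pass (edgeR adjusted p = 0.053). A missing difference between these clusters therefore does not show equal levels in the lineages.

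The SCRB-seq and bulk series differed at several steps of the time course. From 0 to 6 h in SCRB-seq Trp53 was 2.48 times higher (2.10 to 2.95), Mcl1 2.06 times (1.80 to 2.37) and Bcl2l11 5.45 times (1.92 to 21.3), and Ccng1 was at 0.386 of its level (0.329 to 0.452). Those were 4 members past 2-fold, where 31.6% of genes were. In bulk, Trp53 at 6 h (335 CPM) lay between the mESC libraries, and so did Ccng1 (68.9 CPM). The first SCRB-seq plate thus sets the ratios against 0 h, and against 6 h instead the fall of Trp53 to 96 h would be larger. From 72 to 96 h the SCRB-seq ratio was 0.369 (0.230 to 0.571) for Trp53 and 0.203 (0.0894 to 0.404) for Bcl2l11. Bulk did not show these falls, with Trp53 at 125 and 127 CPM and Bcl2l11 at 20.2 and 16.4 CPM at 72 and 96 h. From 36 to 48 h the SCRB-seq ratio was 1.06 (0.654 to 1.70) for Bcl2l11, where bulk gave 5.15 (2.19 to 14.8). For Ccng1 it was 1.28 (1.10 to 1.48), where bulk gave 2.22 (1.76 to 2.82). For Trp53 it was 0.530 (0.437 to 0.641), where bulk gave 0.609 (0.527 to 0.704).

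SMART-seq2, which covers whole transcripts and was given as RPKM (reads scaled for transcript length and library size), was scaled here to the same total in each cell. It had 82, 86, 89 and 82 cells at 0, 12, 24 and 48 h, 1 culture each, so no test of time was made. The mean of Trp53 was 253, 319, 321 and 128 scaled RPKM (SD over cells 115, 120, 125 and 79), 1.98-fold lower at 48 than at 0 h and thus just short of 2-fold. Its fall lay between 24 and 48 h, as in bulk, and 93.9% of the 48 h cells still had more than 1 RPKM. Ccng1 was at 225, 138, 143 and 227, lower at 12 and 24 h than at 0 h. Its 48 h mean was 1.01 times that at 0 h, and in SCRB-seq it was not above 0 h either (2.04 against 2.44 UMIs per 10000). In bulk Ccng1 was above mESCs at 48 h, at 129 against 76.1 and 66.6 CPM.

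Mdm2 rose in the mean, with 61.9, 110, 116 and 161 scaled RPKM, but less in the median over cells, with 53.4, 66.3, 88.4 and 92.9. At 48 h 1 cell reached 1706. Bax was at 391, 418, 450.2 and 349, and Mcl1 at 42.3, 46.8, 69.1 and 45.3, highest at 24 h as in bulk. Bcl2l11 was at 12.3, 13.4, 19 and 21.7, and the share of cells above 1 RPKM was 32.9% at 0 h (exact Clopper-Pearson 95% interval 22.9 to 44.2) and 62.2% at 48 h (50.8 to 72.7). Pmaip1 was at 4.50, 4.65, 11 and 20.6, Bcl2 at 0.337, 0.834, 2.02 and 3.81, and Bbc3 at 7.41, 13.1, 14.2 and 12.7.

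Between 48 and 0 h 3 members were past 2-fold in the mean, Mdm2 (2.60-fold higher), Pmaip1 (4.59-fold higher) and Bcl2 (11.3-fold higher), where 35.3% of 15878 genes were past 2-fold. With medians over cells Mdm2 was at a log2 ratio of 0.80 and not past 2-fold. The Bcl2 mean at 48 h came from 8 cells above 1 RPKM, against 2 at 0 h. Of the other p53 targets 2 of 25 were past 2-fold higher and 3 lower, with a median log2 ratio of 0.12 beside 0.20 over all genes. Within the 82 cells at 48 h no member's Spearman rho with the XEN or ectoderm marker sum exceeded 0.26 in size, a weak relation in sparse data.

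**Figure D5:**
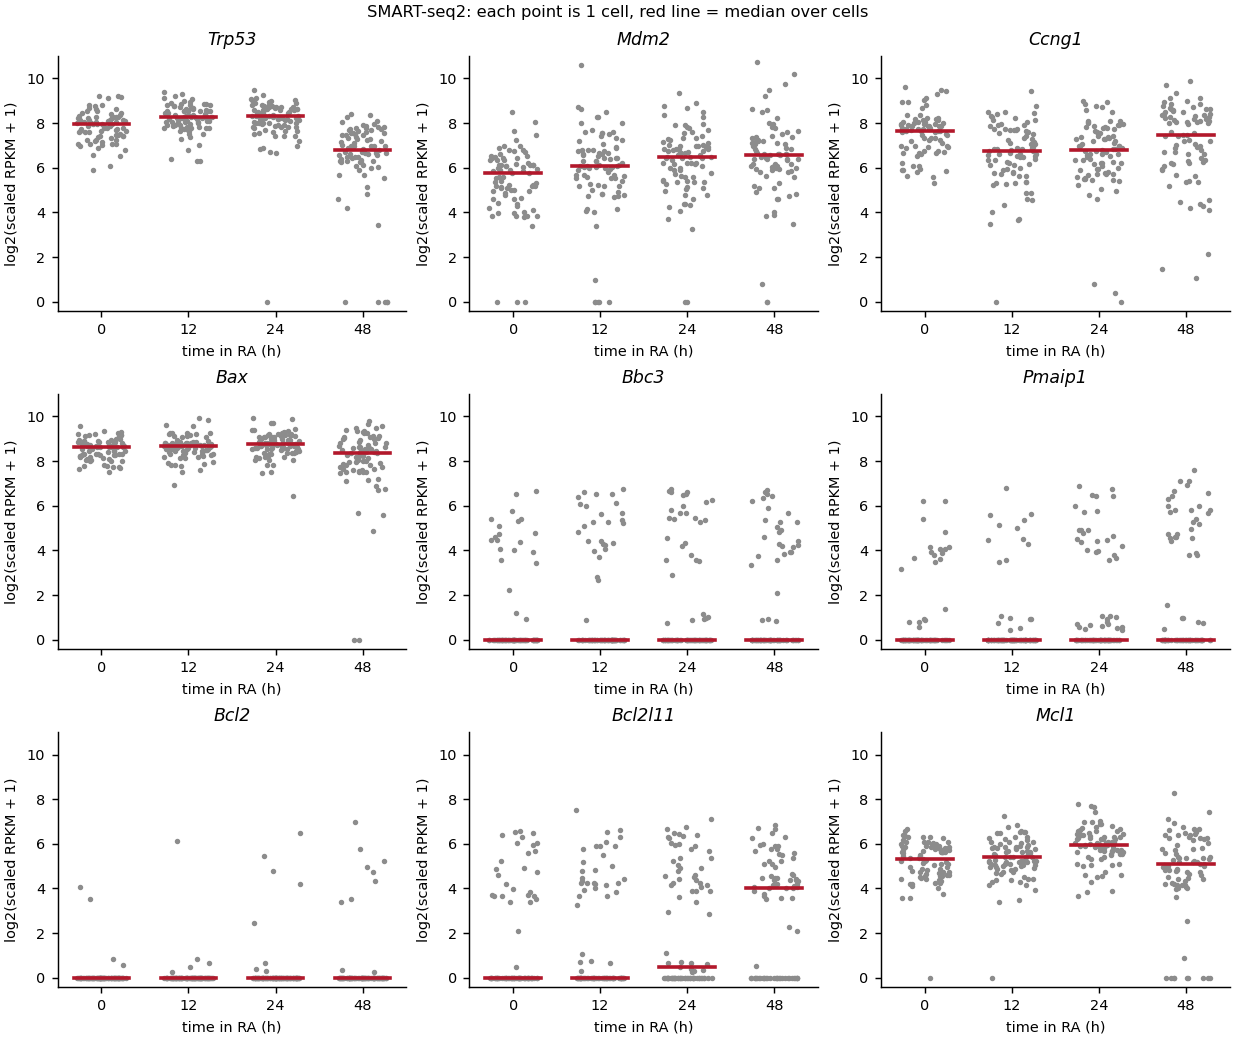
Each panel plots 1 member as log2(scaled RPKM + 1) in every SMART-seq2 cell (points) at 0, 12, 24 and 48 h in RA, with the median as a red line. The cells move down for Trp53 at 48 h, while a growing share of cells has a value above 0 for Bcl2l11 and Pmaip1.

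Set side by side over 25 bulk libraries, the members did not follow 1 pattern. The correlation of log2(CPM + 1) was 0.90 between Trp53 and Bax and 0.71 between Mdm2 and Ccng1, and 0.19 between Trp53 and its target Ccng1. Mcl1 and Ccng1 were at -0.48. These are descriptions over libraries that share cultures, time and the low levels of the ectoderm-like culture. Among 4437 genes with a mean of at least 20 CPM, those most like Trp53 were Dhx16 (0.93) and Zfp961 (0.91), those most like Ccng1 were Bex2 (0.89) and Eda2r (0.88), and those most like Bax were Syce2 (0.96) and Ptcd3 (0.91). Mdm2 was most like Ddit4l (0.80) and Cul4b (0.80), and Mcl1 most like Hspa9 (0.74) and Ppp1r2 (0.70).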

How the data were processed

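Bulk and SCRB-seq files hold UMI counts per gene, which the authors made with BWA 0.7.4, aligning to the mRNAs of mouse RefSeq (mm10 build), the mitochondrial genome and ERCC spike-ins. The SMART-seq2 files hold RPKM values that the authors deposited from TopHat and Cuffnorm (versions not given in the sources used here), from cells with at least 200000 reads. Since 1 value per gene and sample was deposited, isoforms were not analysed here.

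From the bulk counts 2 genes were left out because 3 of their values were damaged. Sorted lineages and mESCs were compared with edgeR 4.0.16 in R 4.3.3 (quasi-likelihood test, TMM, filterByExpr, 6 libraries in 1 fit, Benjamini-Hochberg over 8947 genes, threshold 0.05), and with DESeq2 1.42.0 as an alternative. The fit was tested on simulated data with 1 dispersion for all genes, in which the changed genes had a mean above 20 CPM. Of genes changed by 4-fold 95.0%, 95.4% and 93.7% were recovered, and of those changed by 2-fold 18.4%, 19.7% and 13.9%. The order is ectoderm-like against mESC, XEN-like against mESC and XEN-like against ectoderm-like. Bcl2l11, Bbc3, Pmaip1 and Bcl2 lay below that mean, so these shares do not cover them. Groups with 1 library were compared by ratios of CPM, past 2-fold among genes with at least 20 counts, with exact 95% Poisson intervals on the counts. With 2 libraries per group an exact permutation test could not go below 0.333, so none was used. The study's methods call the libraries of all 3 groups biological replicates.

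Wells above 2000 UMIs were pooled per SCRB-seq plate, with no doublet caller run. 23481 genes and 3456 wells were read, 2448 wells passed, and no pair of wells held identical counts. Each SMART-seq2 cell was brought to 1 common total, the median over cells at 0 h; 4 entries of repeated names were left out and 10206 values stored as text were read as 0, none of them in the 9 genes. Depth behind each SMART-seq2 value is unknown. The relation to passing wells used exact permutations of the 9 plates. Scripts ran in Python 3.11.15 (pandas 2.3.3, scipy 1.17.1, numpy 2.4.6; figures with matplotlib 3.10.9).

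The 9 genes, the pathway lists and the tests were chosen with earlier results of these data known. All 9 are named; from each list at most 3 called genes per tested contrast are given with values, those with the smallest adjusted p, and the genes most like a member are the 2 with the highest correlation. Alternatives tried were other normalizations, filters, tools, UMI minimums and leaving out libraries. Promoter sequences are from RefSeq (GRCm38.p6). A result of the caspase list is not reported here.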

Additional observations from a re-analysis of the deposited data

Results flagged for a closer look

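For 2 members the change from mESCs differed between the lineages by the edgeR test of that difference. For Trp53 the log2 fold change was -1.30 towards the ectoderm-like and -2.81 towards the XEN-like fate, a difference of -1.52 (adjusted p = 0.0058, lower in both XEN-like libraries than in both ectoderm-like ones). For Bcl2l11 these values were 2.32 and -0.78, a difference of -3.09 (adjusted p = 0.0055, again without overlap of the libraries). The groups did not overlap for 57.7% of all genes in this contrast. No group of the bulk data was large enough to look for single outlying libraries.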

How the results depend on the processing

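The counts of called genes moved most with the libraries and the tool. DESeq2 called 1112 genes instead of 1711 in ectoderm-like cells against mESCs and 718 instead of 1139 in XEN-like against ectoderm-like cells, and 2 members instead of 4 in the former. Leaving out 1 library gave 876 to 1750, 1267 to 1962 and 296 to 1371 genes in the contrasts ectoderm-like against mESC, XEN-like against mESC and XEN-like against ectoderm-like, with 1 to 4 members in the first and 1 to 2 in the last; the lowest of these came without the second ectoderm-like library in the first, without the first XEN-like library in the second and without the first ectoderm-like library in the last. With library totals in place of TMM the calls in ectoderm-like cells split into 1372 higher and 587 lower (881 and 830 with TMM) and in XEN-like cells against mESCs into 1336 and 703 (1103 and 939 with TMM). Without the low-count filter edgeR called 1667 genes and 4 members between the lineages, with Ccng1 (adjusted p = 0.036) and Bbc3 (0.029) added. With library totals Ccng1 passed too (0.028).

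With the replicate number as a block, edgeR called 1339 genes and 3 members between the lineages, with Ccng1 added (adjusted p = 0.024). Same-numbered sorted libraries deviated together with a correlation of 0.32, but with only 2 pairs and no label that ties them, the numbers were not taken as a pairing.

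Directions turned only for log2 fold changes that were not called. Mdm2 in ectoderm-like cells became -0.0081 with DESeq2 and ranged from -0.10 to 0.15 over the leave-one-out fits (-0.086 without mESC replicate 2), and in XEN-like cells it ranged from -0.043 to 0.15. Between lineages Mdm2 became -0.070 with library totals and ranged from -0.038 to 0.22, and Mcl1 became -0.076 with library totals and ranged from -0.21 to 0.45 (-0.15 without XEN-like replicate 1). Bbc3 in XEN-like cells ranged from -0.40 (without replicate 2) to 1.22.

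With Gapdh as the reference 1 member was past 2-fold between the 48 h quartiles and 2 in the XEN-like culture, where 2 were also past 2-fold against sorted replicate 2 alone. Against sorted replicate 1 alone Pmaip1 in the ectoderm-like culture was at a log2 ratio of 0.49. At a minimum of 4000 UMIs 0 members were related to the share of wells by Pearson's r, and at 1000 UMIs Ccng1 alone was. The share at 96 h was 18.2% at 4000 UMIs, against 58.1% at 1000 UMIs. Low counts limit Bcl2, Pmaip1 and Bbc3 throughout.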
